A study of Mus musculus with 12 samples.

Results

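The 37 genes described here make cholesterol and fatty acids or set the rate at which cells make them, and they were chosen by symbol from the 17576 genes of the table, with earlier results of these data known. Of these, 18 form the sterol branch, from acetyl-CoA to cholesterol, and 9 form the fatty acid branch. The other 10 are 5 genes of the SREBP control system, the sterol carrier Stard4, and 4 genes of the liver X receptor (LXR) and cholesterol efflux. RNA-seq was done on C18-4 cells, a line of mouse spermatogonia (strain given as IRC mouse) that serves as a culture model of spermatogonial stem cells, in 4 groups with 3 libraries each, 12 in all. The 3NC group carried the lentivirus vector LV3 with a control shRNA, and the KD group (lncRNA5251 knockdown) carried LV3 with a mixture of shRNAs against lncRNA5251. The 5NC group carried the empty vector LV5, and the OV group (lncRNA5251 overexpression) carried LV5 with lncRNA5251. All groups thus carried a virus, all came from 1 cell line kept in medium with fetal bovine serum, and no group without a virus was part of the series. The labels do not say that the libraries came from separate cultures, so p-values measure the spread between these libraries, which may be technical.

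Cholesterol is built from acetyl-CoA by way of mevalonate and squalene, and fatty acids are built from the same acetyl-CoA by acetyl-CoA carboxylase and fatty acid synthase. The transcription factors SREBP1 and SREBP2, encoded by Srebf1 and Srebf2, switch on the genes of both branches. When sterols are scarce, Scap carries the SREBPs to the Golgi for cleavage, and when sterols are plentiful, the Insig proteins hold Scap back in the endoplasmic reticulum. The LXRs are activated by oxysterols and switch on efflux pumps such as Abca1. In the testis, germ cells and somatic cells need cholesterol for membranes, and polyunsaturated fatty acids made by the desaturases Fads1 and Fads2 are abundant in spermatozoa.

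SREBPs act together with the CCAAT-binding factor NF-Y and with Sp1, so the promoters of the members were searched for these motifs, taking 250 bases before to 50 bases after each start site from RefSeq (GRCm38.p6). Of the 37 members, 29 had at least 1 such window. The motif CCAAT, searched on both strands, was in 21 of the 29 (72.4%), against 44.1% of the genes tested for expression and 41.1% of all genes with a window. It was in 14 of 15 genes of the sterol branch, with Acat2 as the exception, and in 3 of 6 genes of the fatty acid branch (Acly, Acss2 and Fasn). The Sp1 motif GGGCGG, on both strands, was in 23 of 29 (79.3%, against 71.7% of the genes tested). A form of the sterol regulatory element, TCANNCCAC on both strands, was in 2 of 29 (6.9%, against 4.51% of the genes tested), and the letters searched do not cover all known forms of this element. The motifs were counted independently of each other, and a match is a stretch of letters, not a measured binding site. Shown first are the stretches of Hsd17b7, Mvd and Insig1 that hold their CCAAT motifs. Among members with a window, these genes and Hmgcs1 had the largest falls in 5NC against 3NC, and they were picked for that reason. The whole window of Hmgcs1 and the site of Acly are shown because they hold TCANNCCAC. These genes were chosen after their values were seen. Capitals mark CCAAT or its complement ATTGG, and the match to TCANNCCAC. Each sequence is written 5′ to 3′ on the strand of the gene.
Hsd17b7 (chr1:169969183-169969400, minus strand): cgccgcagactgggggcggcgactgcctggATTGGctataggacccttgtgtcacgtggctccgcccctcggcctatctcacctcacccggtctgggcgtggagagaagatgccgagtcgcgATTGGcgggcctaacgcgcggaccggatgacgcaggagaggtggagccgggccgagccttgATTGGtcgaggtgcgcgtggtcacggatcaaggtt
Mvd (chr8:122443415-122443512, minus strand): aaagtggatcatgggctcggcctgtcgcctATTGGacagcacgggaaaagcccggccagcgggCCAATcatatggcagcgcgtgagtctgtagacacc
Insig1 (chr5:28071166-28071230, plus strand): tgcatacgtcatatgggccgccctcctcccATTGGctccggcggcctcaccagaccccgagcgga
Hmgcs1 (chr13:119690101-119690400, plus strand): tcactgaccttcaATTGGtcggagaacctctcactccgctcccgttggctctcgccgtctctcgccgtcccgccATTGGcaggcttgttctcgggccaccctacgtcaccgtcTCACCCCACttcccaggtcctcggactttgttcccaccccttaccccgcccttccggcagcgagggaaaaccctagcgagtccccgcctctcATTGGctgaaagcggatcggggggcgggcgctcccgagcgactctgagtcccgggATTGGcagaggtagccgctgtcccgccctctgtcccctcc
Acly (chr11:100528139-100528168, minus strand): cctgaaacgaTCAGGCCACagcccccagcc
Hsd17b7 had 3 CCAAT motifs, which began 165, 73 and 12 bases before the start site, Mvd had 2, at 60 and 27 bases before it, and Insig1 had 1, at 216 bases before it. The match to TCANNCCAC began 137 bases before the start site in Hmgcs1 and 158 bases before it in Acly.

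The values are RPKM, that is, read numbers divided by gene length and by the reads of the library, so levels can be compared between genes. RPKM do not keep read numbers, and the depth of the libraries in reads is unknown. Sums of RPKM per library ran from 533099 to 580920, Spearman's correlation within groups was 0.987 to 0.99 across genes, and no pair of libraries in a group held identical values. The level of lncRNA5251 was not analysed here, so the labels KD and OV were not checked against it. The sample labels and the study's main text name lncRNA5251, whereas a supplementary methods heading for the C18-4 experiment names lncRNA8276, and the labels were followed here. Of 13 spermatogonial and germ cell markers, Uchl1 was between 65.1 and 115.9 RPKM by group mean, Etv5 between 2.35 and 7.81 and Id4 between 0.933 and 1.56. The other 10 reached at most 0.60 RPKM in any library, among them Nanos2, Kit and Ret at 0 RPKM in all libraries and Gfra1, Zbtb16, Dazl and Ddx4 with group means of at most 0.147 RPKM. Of the Sertoli cell markers, Wt1 was at 50.3 to 54.9 RPKM by group mean, Gata4 at 4.54 to 6.23 and Inha at 1.55 to 1.997, and Sox9, Amh and Cldn11 reached at most 0.03, 0.15 and 0.04 RPKM in any library. Of the mesenchymal markers, Vim was at 536 to 610 RPKM by group mean, Col1a1 at 256 to 423, Dcn at 21.6 to 112, Acta2 at 8.52 to 21.2 and Pdgfrb at 0.833 to 1.46, and Thy1 and Col1a2 reached at most 0.04 and 0.58 RPKM in any library.

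Of the 37 members, 35 reached at least 1 RPKM in at least 3 libraries and were tested. The exceptions were the efflux pumps Abca1 (0.38 to 0.86 RPKM) and Abcg1 (0 or 0.01 RPKM). In 3NC the highest levels were those of Scd2, a stearoyl-CoA desaturase (mean 127.8 RPKM), Hmgcs1, the HMG-CoA synthase (104.9), Fads1 (84.1), Acly, the ATP citrate lyase that supplies cytosolic acetyl-CoA (77.2), and Fdps, the farnesyl diphosphate synthase (69.9). The lowest levels among tested members were those of Nr1h3, which encodes LXR alpha (0.843 RPKM), Tm7sf2, a sterol reductase (5.25), and Elovl6, a fatty acid elongase (5.52). The order differed in 5NC, where Fads1 (94.6 RPKM), Fads2 (72.8) and Scd2 (59.3) led. Scd1, a second stearoyl-CoA desaturase, was at rank 12 among the 37 members in 3NC and at rank 25 in 5NC. Nr1h2, which encodes LXR beta, had 32.2 RPKM in 3NC, so LXR beta mRNA was far above LXR alpha mRNA in these cells.

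**Figure D1:**
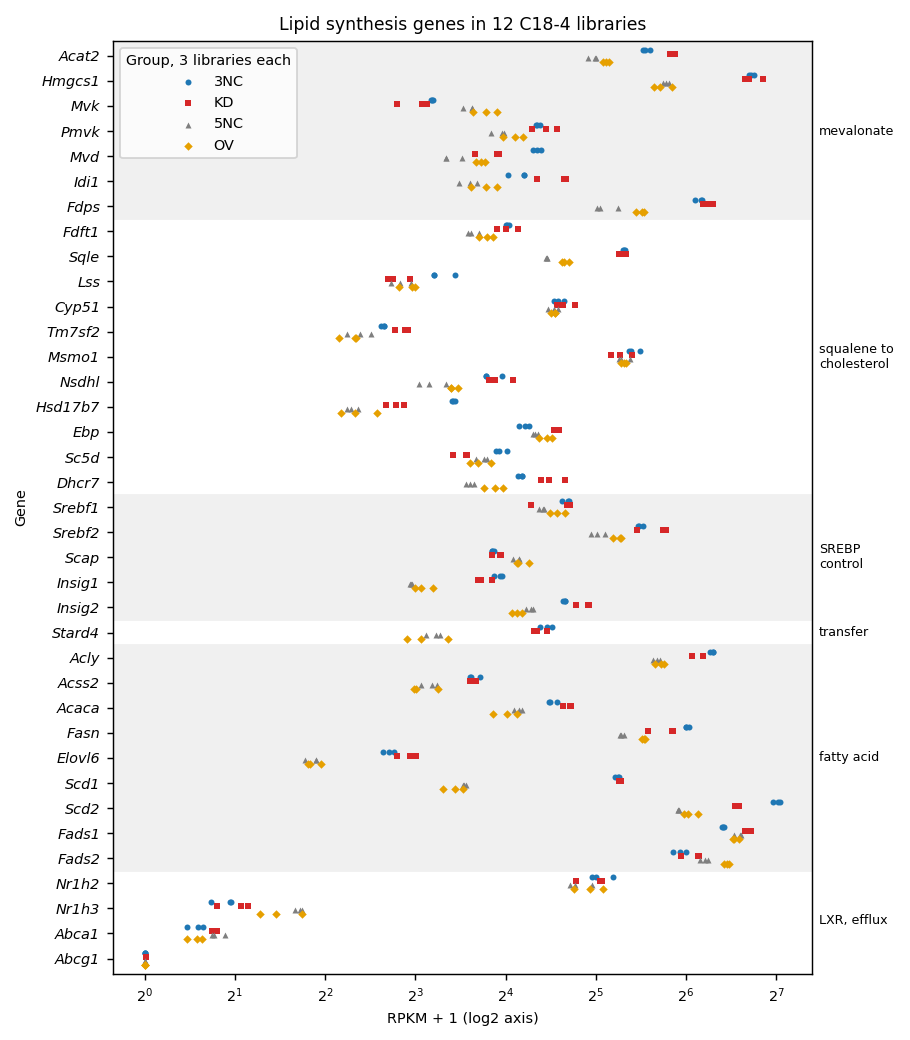
RPKM + 1 on a log2 axis (horizontal) for each of the 37 members (vertical, ordered by role) in the 12 libraries, 1 point per library, with colours and shapes for the 4 groups. For 22 of the 35 tested members the 6 LV3 libraries (3NC and KD) lay to the right of the 6 LV5 libraries (5NC and OV), and the gap was widest for Scd1 and Stard4.

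Of the comparisons of KD with 3NC, of OV with 5NC and of 5NC with 3NC, the last had the largest differences in lipid synthesis mRNAs. Compared to 3NC, 27 of the 35 tested members were lower in 5NC, 5 were higher and 3 did not pass the test (limma on log2(RPKM + 1) with Benjamini-Hochberg adjustment over 11435 genes, adjusted p of at most 0.05). Over all genes tested, 25.6% were lower, 31% were higher and 56.5% were called in either direction. The median log2 fold change was -0.47 over the members and 0.02 over all genes. At the study's threshold, which asks for an adjusted p of at most 0.001 and a log2 fold change of 1 or more in size, 5 members (Fdps, Hsd17b7, Scd1, Scd2 and Stard4) were lower and 0 were higher on the log2(RPKM + 1) scale, against 1.05% and 1.56% of all genes. With a pseudocount of 0.1, which is nearer to a plain ratio of RPKM, 8 were lower, with Elovl6 (-1.05), Insig1 (-1.06) and Mvd (-1.02) in addition, and 1, Nr1h3 (1.34), was higher, against 1.81% and 2.61% of all genes. At an unadjusted p under 0.05, 27 members were lower and 6 higher, against 3203 and 3818 of the 11435 genes tested. The libraries of 3NC and 5NC did not overlap in 33 of the 35 members, against 69.3% of all genes. The log2(RPKM + 1) scale understates the change of genes at low RPKM. Vector, control shRNA and culture cannot be told apart between 3NC and 5NC.

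The fall was widest in the desaturase Scd1, which makes monounsaturated fatty acids. Scd1 was at 36.2, 37.1 and 37.2 RPKM in 3NC and at 10.8, 10.7 and 10.5 RPKM in 5NC, a log2 fold change of -1.70 (standard error 0.06, limma adjusted p = 4.67e-12). Its relative Scd2 was at 131, 129 and 124 RPKM in 3NC and at 59.6, 59.3 and 58.96 RPKM in 5NC, a log2 fold change of -1.09 (standard error 0.05, limma adjusted p = 4.98e-11). The libraries of each group were close to each other, and the groups were far apart for both desaturases. In the same branch Elovl6 (-0.85), Fasn, the fatty acid synthase (-0.72), Acly (-0.61), Acss2, which makes acetyl-CoA from acetate (-0.48), and Acaca, the acetyl-CoA carboxylase (-0.37), fell on the log2 scale. The desaturases of polyunsaturated fatty acids went the other way, since Fads1 (0.17) and Fads2 (0.27) were higher in 5NC. The fatty acid branch thus had 7 genes that fell and 2 that rose, with a median of -0.61, against 25.6% of all genes lower and 31% higher.

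In the sterol branch 14 of 18 genes fell, 1 rose and 3 did not pass the test, with a median log2 fold change of -0.50. Of all genes, 25.6% were lower and 31% higher. Hsd17b7, a ketoreductase that takes part in the removal of methyl groups from sterols, was at 9.82, 9.58 and 9.67 RPKM in 3NC and at 3.88, 3.75 and 4.16 RPKM in 5NC, a log2 fold change of -1.12 (standard error 0.09, limma adjusted p = 5.22e-08). Fdps was at 71.02, 71.2 and 67.6 RPKM in 3NC and at 37.1, 32.1 and 31.3 RPKM in 5NC, a log2 fold change of -1.04 (standard error 0.06, limma adjusted p = 1.37e-09). Hmgcs1 was at 107, 105 and 103 RPKM in 3NC and at 52.8, 55.3 and 53.7 RPKM in 5NC, a log2 fold change of -0.95 (standard error 0.06, limma adjusted p = 3.52e-09). None of the libraries of 5NC reached the level of a 3NC library for these genes of early and late steps. Mvd, the mevalonate diphosphate decarboxylase (-0.95), Sqle, the squalene epoxidase (-0.86), and Nsdhl, a sterol dehydrogenase (-0.66), fell as well. Smaller falls were those of Acat2, the cytosolic thiolase (-0.59), Idi1, the isopentenyl diphosphate isomerase (-0.56), Dhcr7, a reductase of the last steps (-0.56), Lss, the lanosterol synthase (-0.45), Pmvk, the phosphomevalonate kinase (-0.43), Fdft1, the squalene synthase (-0.38), Tm7sf2 (-0.26) and Sc5d, a sterol desaturase (-0.20).

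The exceptions in the sterol branch were Mvk, Cyp51, Msmo1 and Ebp. Mvk, the mevalonate kinase, was at 8.03, 8.07 and 8.15 RPKM in 3NC and at 11.3, 11.3 and 10.5 RPKM in 5NC, a log2 fold change of 0.41 (standard error 0.09, limma adjusted p = 0.000875), and it was the 1 gene of the branch that rose. Cyp51, the lanosterol demethylase (-0.06), Msmo1, the methylsterol oxidase (-0.11), and Ebp, a sterol isomerase (0.12), did not pass the test. The window of Mvk held 5 CCAAT motifs, while those of Hmgcs1, Hsd17b7, Lss and Acat2, which fell, held 4, 3, 1 and 0. Those of Cyp51, Msmo1 and Ebp held 1, 3 and 2, and a link between motifs and change was not tested. Mvk and Mvd catalyse steps of the same short pathway, and their log2 fold changes had opposite signs. Their mRNA levels in 3NC were 8.08 and 19.4 RPKM, and in 5NC 11.1 and 9.56 RPKM.

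Stard4, which carries cholesterol between membranes, was at 19.9, 21.8 and 21.03 RPKM in 3NC and at 7.66, 8.41 and 8.65 RPKM in 5NC, a log2 fold change of -1.25 (standard error 0.09, limma adjusted p = 2.7e-08). Among the genes of SREBP control, Insig1 was at 13.7, 14.6 and 14.3 RPKM in 3NC and at 6.83, 6.75 and 6.66 RPKM in 5NC, a log2 fold change of -0.97 (standard error 0.06, limma adjusted p = 8.33e-09). Srebf2 (-0.47), Insig2 (-0.38) and Srebf1 (-0.27) fell less, and Scap (0.27) rose. Of these genes it was thus the feedback gene Insig1, which the SREBPs themselves switch on, that had the widest fall. Nr1h3 was at 0.67, 0.92 and 0.94 RPKM in 3NC and at 2.36, 2.17 and 2.29 RPKM in 5NC, a log2 fold change of 0.83 (standard error 0.12, limma adjusted p = 2.58e-05). All 3NC libraries of Nr1h3 were below the 1 RPKM of the filter, which it passed mainly through the LV5 groups, where it is high, so its count among the members that rose supports nothing. Nr1h2 fell (-0.24, a call that was lost without 3NC replicate 1 or 3 or 5NC replicate 2 or 3). Tm7sf2 was not called without 5NC replicate 2, nor Sc5d without 3NC replicate 1 or 5NC replicate 1. The other 29 calls were kept when each library was left out in turn.

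**Figure D2:**
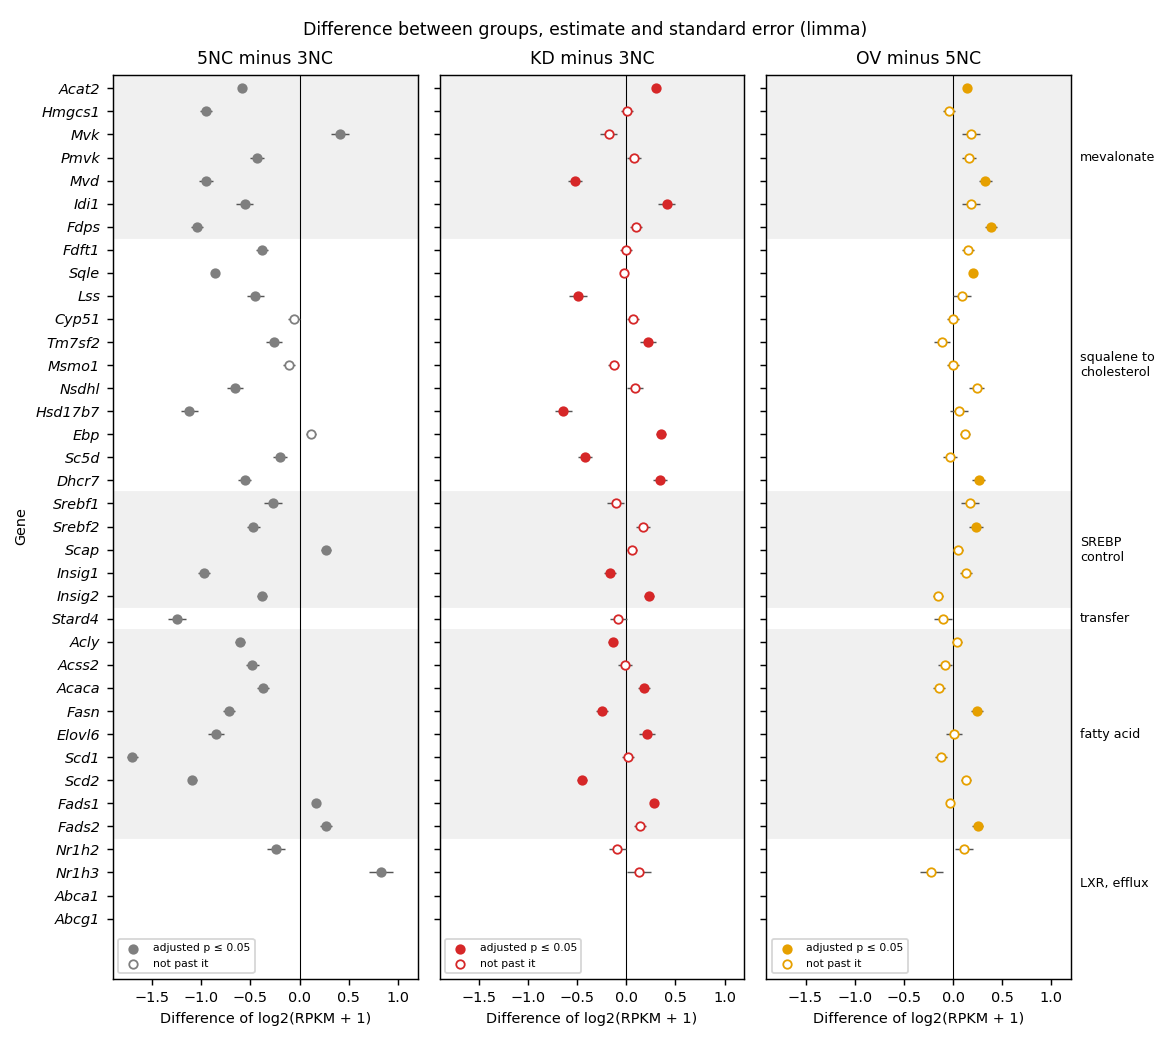
Estimated difference of log2(RPKM + 1) with its standard error (horizontal) for each tested member (vertical) in 3 comparisons, with filled points for an adjusted p of at most 0.05. In 5NC against 3NC 27 filled points lie left of 0 and 5 right of it, in KD against 3NC 8 and 9, and in OV against 5NC 0 and 8.

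Many members were also divided by the vector across all 4 groups. In 22 of the 35 members all 6 LV3 libraries (3NC and KD) lay above all 6 LV5 libraries (5NC and OV), against 16% of all genes tested. In 4 members, Mvk, Scap, Fads2 and Nr1h3 (with the limit given above), all LV3 libraries lay below all LV5 libraries, against 16.7% of all genes. The order was mixed in Mvd, Lss, Cyp51, Msmo1, Ebp, Sc5d, Srebf1, Fads1 and Nr1h2. In the sterol branch 11 of 18 genes were higher in all LV3 libraries, and in the fatty acid branch 7 of 9. Markers of mesenchymal cells differed between the groups as well, though of the 5 tested genes of that list 1, Dcn, was lower in all LV3 than in all LV5 libraries. In 5NC against 3NC 4 of the 5 rose (Dcn 2.32, Acta2 1.22, Col1a1 0.57 and Pdgfrb 0.28 on the log2 scale) and Vim (0.00) did not pass the test. Pdgfrb was below 1 RPKM in all 3NC libraries and passed the filter through the other groups. The same 4 rose in KD against 3NC (Acta2 1.04, Dcn 0.71, Col1a1 0.51 and Pdgfrb 0.42), and in OV against 5NC Vim rose (0.18) and Acta2 fell (-0.60). The summed RPKM of the list ran from 801 to 843 in 3NC, from 901 to 996 in KD, from 1040 to 1080 in 5NC and from 1110 to 1200 in OV. Markers of other cell types moved as well. Wt1 and Gata4, 2 of 3 tested Sertoli markers, and Uchl1, 1 of 3 tested germ cell markers, were lower in all LV3 than in all LV5 libraries. In 5NC against 3NC Uchl1 (0.24), Gata4 (0.23) and the Leydig cell marker Star (0.21, below 1 RPKM in all 3NC libraries) rose, and Etv5 (-1.11) and the macrophage marker Cd68 (-0.92) fell. Id4 (-0.17), Wt1 (0.06) and Inha (0.23) did not pass the test there. Cd68 fell in KD too (-0.70). Star and Cd68 were each the 1 tested gene of their list. The macrophage markers Ptprc, Csf1r and Lyz2 reached at most 0.07, 0.06 and 0.63 RPKM in any library. Among the Leydig markers, Cyp11a1, Cyp17a1 and Insl3 reached at most 0.02, 0.04 and 1.16 RPKM. In bulk RNA, fewer cells of a kind and less RNA per cell cannot be told apart, and the part of these differences in the lipid genes was not tested.

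Knockdown was compared with 3NC, its own vector control, and here the members moved in both directions and by little, at shares near those of all genes. Of the 35 tested members 9 rose, 8 fell and 18 did not pass the test in KD, against 31.9% of all genes higher, 23.5% lower and 55.4% in either direction. The median log2 fold change was 0.02 over the members and 0.04 over all genes. At the study's threshold 0 members were higher and 0 lower (limma), against 0.498% and 1.08% of all genes, and the counts were also 0 with a pseudocount of 0.1 (1.45% and 1.72% of all genes). With median ratio size factors 6 members rose and 10 fell in KD, with Acaca (0.13), Elovl6 (0.17) and Tm7sf2 (0.17) no longer called and Msmo1 (-0.18) and Mvk (-0.23) called as lower. With quantile normalization 8 rose and 9 fell, and Elovl6 (0.17) and Tm7sf2 (0.18) were again not called. At an unadjusted p under 0.05, 11 were higher and 10 lower. The libraries of the 2 groups did not overlap in 19 members, against 62.8% of all genes. In the same comparison 4 of 5 tested mesenchymal markers rose and the 3 tested spermatogonial and germ cell markers, Etv5, Id4 (below 1 RPKM in 2 KD libraries) and Uchl1, fell, with a summed RPKM of that list of 82.8 to 91.4 in 3NC and 64.2 to 72.1 in KD, and their part in the result was not tested.

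The genes that fell included a pair of sterol genes and a desaturase with clear falls. Hsd17b7 was at 5.88, 5.40 and 6.31 RPKM in KD, against 9.82, 9.58 and 9.67 RPKM in 3NC, a log2 fold change of -0.64 (standard error 0.09, limma adjusted p = 2e-05). Mvd was at 13.9, 14.2 and 11.6 RPKM in KD and at 19.4, 18.8 and 19.97 RPKM in 3NC, a log2 fold change of -0.52 (standard error 0.07, limma adjusted p = 2.9e-05). Scd2 was at 92.2, 91.99 and 95.5 RPKM in KD, a log2 fold change of -0.45 (standard error 0.05, limma adjusted p = 1.01e-06) against 3NC. In all of these the KD libraries lay between those of 3NC and those of 5NC. Lss was at 5.75, 6.69 and 5.48 RPKM in KD and at 8.23, 9.88 and 8.27 RPKM in 3NC (log2 fold change -0.49, standard error 0.09, limma adjusted p = 0.000254). Sc5d was at 9.69, 10.8 and 10.9 RPKM in KD and at 15.2, 14.2 and 13.8 RPKM in 3NC (log2 fold change -0.42, standard error 0.07, limma adjusted p = 0.000109). Lss and Sc5d thus fell without overlap of the libraries. Fasn (-0.25), Insig1 (-0.17) and Acly (-0.14) fell by less.

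The genes that rose were spread over the same steps. Idi1 was at 24.5, 19.3 and 24.1 RPKM in KD and at 15.3, 17.4 and 17.5 RPKM in 3NC, a log2 fold change of 0.41 (standard error 0.09, limma adjusted p = 0.00184). Ebp was at 22.3, 22.5 and 23.2 RPKM in KD and at 17.6, 16.8 and 18.1 RPKM in 3NC, a log2 fold change of 0.35 (standard error 0.05, limma adjusted p = 3.77e-05). Dhcr7 was at 21.3, 24.3 and 19.98 RPKM in KD and at 16.6, 17.1 and 17.1 RPKM in 3NC, a log2 fold change of 0.34 (standard error 0.07, limma adjusted p = 0.000685). Each KD library of these genes was above each 3NC library. Acat2 was at 57.6, 57.7 and 55.6 RPKM in KD and at 45.7, 47.4 and 45.1 RPKM in 3NC (log2 fold change 0.30, standard error 0.04, limma adjusted p = 3.82e-05). Fads1 was at 104, 103 and 99.7 RPKM in KD and at 84.96, 83.4 and 84.1 RPKM in 3NC (log2 fold change 0.28, standard error 0.04, limma adjusted p = 3.36e-05). Both rose by about the same amount, 1 in each branch. Insig2 (0.23), Tm7sf2 (0.22), Elovl6 (0.21) and Acaca (0.18) rose by less. In the part of the sterol branch from squalene to cholesterol, 3 of 11 genes rose, 3 fell and 5 did not pass the test. These counts were near the shares of all genes in KD, 31.9% higher and 23.5% lower.

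**Figure D3:**
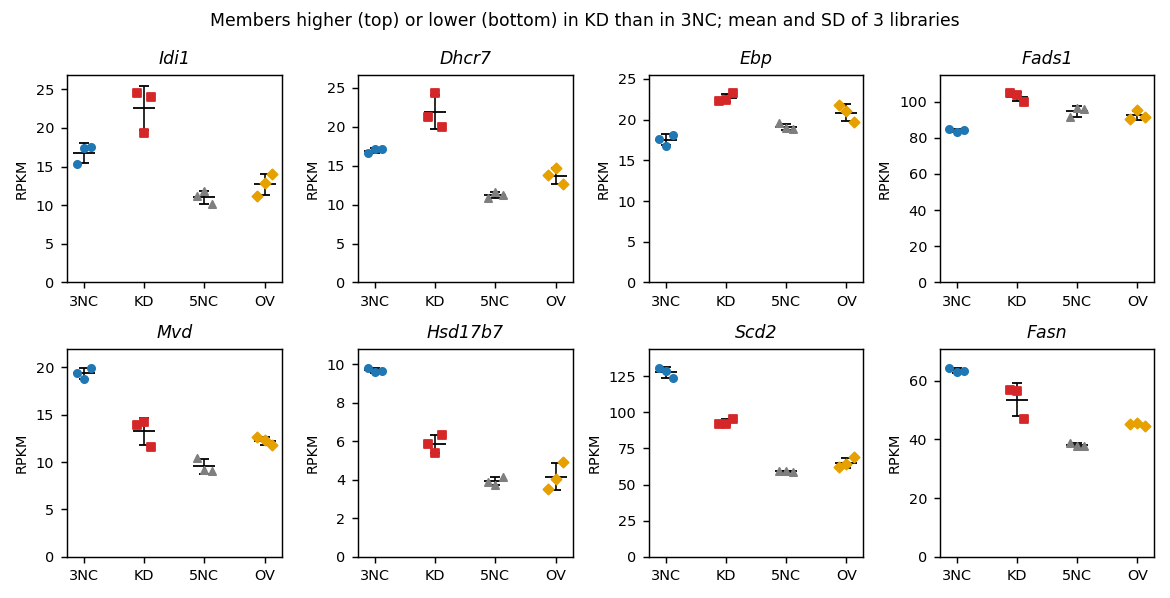
RPKM (vertical, from 0) of 4 members that rose and 4 that fell in KD against 3NC, by group (horizontal), with 1 point per library and the mean and SD of 3 libraries. The KD libraries lie above the 3NC libraries for Idi1, Dhcr7, Ebp and Fads1, and between those of 3NC and 5NC for Mvd, Hsd17b7, Scd2 and Fasn.

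The sterol branch of 18 had 5 genes that rose, 4 that fell and a median log2 fold change of 0.04 in KD, and the fatty acid branch of 9 had 3 that rose, 3 that fell and a median of 0.02. Over all genes 31.9% were higher and 23.5% lower in KD, near the shares in both branches, and the median was 0.04. Several genes that differed most between the control groups did not pass the test in KD, with log2 fold changes of 0.02 for Scd1, -0.08 for Stard4, 0.01 for Hmgcs1 and -0.02 for Sqle. Scd1 was at 37.4, 37.1 and 37.8 RPKM in KD, within 1 RPKM of its mean in 3NC. KD replicate 3 differed from the other KD libraries in some members. It had 18.5 RPKM of Srebf1, against 24.7 and 25.2 in replicates 1 and 2, and 42.8 RPKM of Srebf2, against 52.6 and 54.1. Without it, Srebf2 (0.28, limma adjusted p = 0.00052), Fads2 (0.20, adjusted p = 0.00304) and Msmo1 (-0.19, adjusted p = 0.00792) passed the test, and Acly, Elovl6 and Tm7sf2 did not. Of the 17 calls, 12 were kept when each library was left out in turn, and those lost without at least 1 library were Acaca, Acly, Elovl6, Insig1 and Tm7sf2.

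The choice of control changed the direction of some calls. Against 5NC, the LV5 control, 25 members were higher in KD and 5 lower (34% and 31.4% of all genes, 65.4% in either direction). The median was 0.48 on the log2 scale, and 6 of the 17 calls turned, namely those of Acly, Fasn, Hsd17b7, Insig1, Mvd and Scd2, which were lower in KD than in 3NC and higher in KD than in 5NC. KD and 5NC differ in the vector as well as in the shRNA.

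Overexpression was compared with 5NC. In OV 8 of the 35 tested members rose and 0 fell, against 8.07% of all genes higher, 13.9% lower and 22% in either direction (limma), and 27 did not pass the test. At an unadjusted p under 0.05, 13 members were higher and 3 lower. The median log2 fold change was 0.11 over the members and -0.03 over all genes, and 25 of the 35 estimates were above 0. At the study's threshold 0 members were called (limma), as were 0 of all genes, and with a pseudocount of 0.1 the members' count was also 0, against 0.0175% of all genes in each direction. The study, which used the package DEGseq in place of limma, reported genes that changed in OV in both directions. The libraries did not overlap in 16 members, 15 of them higher in OV, against 36.7% of all genes in either direction. In the same comparison the germ cell marker Uchl1 rose (0.34 on the log2 scale, limma adjusted p = 0.00383), and the summed RPKM of that list was 93.9 to 97.7 in 5NC and 110 to 127 in OV, without overlap. Most of that sum was Uchl1 itself, with means of 91.1 RPKM in 5NC and 115.9 in OV. The other tested markers of that list, Etv5 (-0.08) and Id4 (0.08), did not pass the test. The sum of the mesenchymal list was also higher in each OV library, and the part of either list in the result was not tested.

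The rises were small, and 5 of the 8 genes belong to the sterol branch of 18. Fdps was at 37.1, 32.1 and 31.3 RPKM in 5NC and at 44.7, 45.4 and 42.5 RPKM in OV, a log2 fold change of 0.39 (standard error 0.06, limma adjusted p = 0.000968). Mvd was at 10.4, 9.12 and 9.11 RPKM in 5NC and at 12.7, 12.3 and 11.8 RPKM in OV, a log2 fold change of 0.33 (standard error 0.07, limma adjusted p = 0.0082). Sqle was at 20.9, 20.9 and 20.97 RPKM in 5NC and at 23.8, 24.04 and 24.97 RPKM in OV, a log2 fold change of 0.20 (standard error 0.04, limma adjusted p = 0.00604). Every OV library of these genes was above every 5NC library and below every 3NC library. Dhcr7 (0.26) and Acat2 (0.14) rose too. In the fatty acid branch Fads2 was at 70.4, 74.9 and 72.9 RPKM in 5NC and at 86.8, 87.97 and 84.6 RPKM in OV, a log2 fold change of 0.25 (standard error 0.06, limma adjusted p = 0.00868). Fasn was at 38.9, 37.6 and 37.9 RPKM in 5NC and at 45.2, 45.6 and 44.5 RPKM in OV, a log2 fold change of 0.24 (standard error 0.06, limma adjusted p = 0.0146). These were the 2 of 9 genes of the branch that rose. Of the genes of SREBP control Srebf2 rose, from 33.2, 29.9 and 31.3 RPKM in 5NC to 37.5, 37.95 and 35.5 RPKM in OV, a log2 fold change of 0.23 (standard error 0.07, limma adjusted p = 0.0363).

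Some calls in OV depended on single libraries. Of the 8, the 4 of Fdps, Mvd, Sqle and Fads2 were kept when each library was left out in turn, and those of Acat2, Dhcr7, Fasn and Srebf2 were lost without at least 1 library. The count of members that rose was 5 without 5NC replicate 3 and 4 without OV replicate 2. Without OV replicate 3, 4 members were lower in OV, namely Acaca (-0.20), Insig2 (-0.18), Scd1 (-0.17) and Stard4 (-0.22), on the log2 scale. Stard4 was at 7.38, 6.49 and 9.28 RPKM in OV, with replicate 3 as the highest, and at 7.66, 8.41 and 8.65 RPKM in 5NC. Against 3NC in place of 5NC, 6 members were higher in OV and 25 lower (30.2% and 31.1% of all genes, 61.3% in either direction), and of the 8 calls all but that of Fads2 turned to lower.

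The difference between the KD effect (KD minus 3NC) and the OV effect (OV minus 5NC) was tested in the same fit. It was above 0 in 6 members and below 0 in 11, against 31.2% and 20.7% of all genes and 51.9% in either direction, with 18 not called. At the study's threshold 0 members were called (limma), against 1.46% of all genes above 0 and 1.41% below, as with a pseudocount of 0.1 (2.82% and 1.93%), and at an unadjusted p under 0.05 6 members were above 0 and 12 below. With median ratio size factors the count below 0 was 15 and the count above 0 was 3, without Acat2, Ebp and Tm7sf2. Mvd fell in KD and rose in OV, and its difference of effects was -0.85 (standard error 0.10, limma adjusted p = 1.12e-05) on the log2 scale. Fasn did the same, with -0.49 (standard error 0.09, limma adjusted p = 0.000261). No other tested member was called in opposite directions in the 2 comparisons. Hsd17b7 (-0.70), Lss (-0.58), Scd2 (-0.58) and Sc5d (-0.40) had a KD effect below the OV effect, and each had fallen in KD. Insig2 (0.37), Tm7sf2 (0.32), Acaca (0.32) and Fads1 (0.31) had a KD effect above the OV effect. Acat2 and Dhcr7 rose in both comparisons, and the difference of effects was 0.16 (standard error 0.06, limma adjusted p = 0.043) for Acat2 and 0.08 (standard error 0.10, limma adjusted p = 0.515) for Dhcr7, which did not pass the test. The call of Acat2 was lost with the replicate block (adjusted p = 0.0512, limma) and with median ratio size factors (0.07, adjusted p = 0.336, limma). Of the 17 calls 13 were kept when each library was left out in turn, and those of Acat2, Acly, Mvk and Tm7sf2 were lost without at least 1 library.

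The 2 branches were compared by their mean log2(RPKM + 1) in each library, as a description without a test because genes of a pathway are not replicates. The mean of the 18 sterol genes was 4.41, 4.42 and 4.39 in the 3NC libraries and 4.39, 4.37 and 4.40 in the KD libraries. It was 3.95, 3.93 and 3.90 in the 5NC libraries and 4.05, 4.06 and 4.06 in the OV libraries. OV thus lay above 5NC in every library and below 3NC and KD. The mean of the 9 fatty acid genes was 5.30, 5.29 and 5.32 in 3NC and 5.34, 5.32 and 5.26 in KD. It was 4.69, 4.72 and 4.71 in 5NC and 4.68, 4.76 and 4.77 in OV, so on this mean the libraries of OV and 5NC overlapped in this branch. On the median over genes they did not, at 5.32, 5.27 and 5.28 in 5NC and 5.53, 5.54 and 5.51 in OV. Both branches were lower with LV5, and the distance between them moved by 0.12 from 3NC to 5NC, by -0.02 from 3NC to KD and by 0.10 from 5NC to OV (sterol minus fatty acid, log2 scale). With the median over genes in place of the mean, these values were 0.14, 0.39 and -0.05, so the difference between the branches in KD and its direction in OV rest on the way the genes are averaged. As summed RPKM, the sterol branch was at 482 to 494 in 3NC, 494 to 516 in KD, 315 to 326 in 5NC and 351 to 354 in OV. The fatty acid branch was at 486 to 491 in 3NC, 448 to 476 in KD, 347 to 357 in 5NC and 366 to 381 in OV. In these sums the KD libraries were all below the 3NC libraries in the fatty acid branch, while in the sterol branch the lowest KD library (494.0) and the highest 3NC library (493.7) were nearly level. The OV libraries were all above the 5NC libraries in the sums of both branches.

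**Figure D4:**
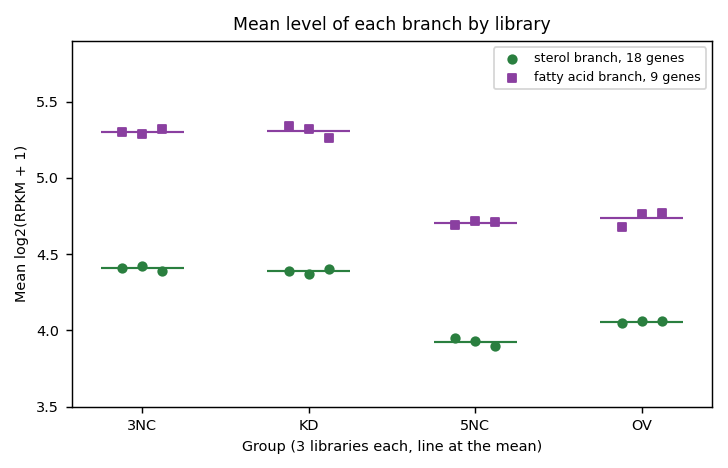
Mean log2(RPKM + 1) of the 18 sterol genes and of the 9 fatty acid genes (vertical, not from 0) in each library by group (horizontal), with a line at the mean of the group. Both branches are lower in 5NC and OV, and OV lies above 5NC in every library for the sterol branch but, on this mean, not for the fatty acid branch.

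Other genes of lipid handling were counted from 4 lists of 74 genes, of which 61 were tested. The shares of all genes against which their counts are to be read are 31% higher and 25.6% lower in 5NC, 31.9% and 23.5% in KD, and 8.07% and 13.9% in OV. In 5NC against 3NC 20 of the 61 rose and 26 fell, with a median of -0.09 on the log2 scale, in KD 29 rose and 11 fell, and in OV 7 rose and 8 fell. In a list of 17 tested genes, mostly of cholesterol uptake and trafficking but with some of sterol synthesis, 7 rose and 5 fell in 5NC. Tmem97, an endoplasmic reticulum protein that binds sterols, fell by 0.86 on the log2 scale in 5NC, whereas the lipoprotein receptor Vldlr (0.43) and the oxysterol-binding protein Osbp (0.28) rose. In KD 10 genes of this list rose, among them Lipa, the lysosomal acid lipase (0.48), and 3 fell, among them Tmem97 (-0.40). In OV 3 rose, among them Tmem97 (0.35), and 3 fell, among them Vldlr (-0.49) and the receptor Lrp1 (-0.27). Tmem97 thus moved in the same direction as Mvd and Fasn in each comparison.

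Of 22 other tested genes of lipid synthesis, 5 rose and 11 fell in 5NC, 8 rose and 4 fell in KD, and 4 rose and 1 fell in OV, against 31%, 25.6%, 31.9%, 23.5%, 8.07% and 13.9% of all genes in the same order. Mid1ip1, which promotes the activity of acetyl-CoA carboxylase, was at 33.5 RPKM by group mean in 3NC and at 16.2 in KD. Its means were 61.1 RPKM in 5NC and 72.0 in OV. Its log2 fold change was -1 in KD (adjusted p = 4.66e-09, limma), 0.85 in 5NC and 0.23 in OV, and it passed the study's threshold in KD. In 5NC Mid1ip1 thus moved opposite to most members. Mogat2, a monoacylglycerol acyltransferase, rose in KD (0.79) and fell in 5NC (-0.86). Lpin1, a phosphatidate phosphatase, fell in 5NC as well (-0.86). Lpin1 was below 1 RPKM in all LV5 libraries and Mogat2 in some, so both passed the filter mainly through the LV3 groups, where they are high. Dgat2, which makes triglycerides, rose in KD (0.35) and in 5NC (0.46). Hsd17b12, a reductase of fatty acid elongation, fell in KD (-0.41). In OV Elovl1, an elongase (0.27), and Acsl5, an acyl-CoA synthetase (0.16), rose and Acsl4, another acyl-CoA synthetase, fell (-0.31).

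Of 10 tested genes of sterol esterification, sensing and the isoprenoid side branch, 5 rose and 3 fell in 5NC (31% and 25.6% of all genes), 4 rose and 2 fell in KD (31.9% and 23.5%), and 0 rose and 4 fell in OV (limma, against 8.07% and 13.9% of all genes, with 0 higher and 6 lower at an unadjusted p under 0.05). The fall in OV included both proteases that cut the SREBPs in the Golgi, Mbtps1 (-0.19) and Mbtps2 (-0.50), together with Nceh1, a cholesteryl ester hydrolase (-0.28), and Ggps1, the geranylgeranyl diphosphate synthase (-0.19). In 5NC Mbtps1 (0.49) and Coq2, an enzyme of ubiquinone synthesis (0.51), rose, and Ggps1 (-0.31) and Lpcat3, a phospholipid acyltransferase (-0.17), fell. In KD Nceh1 (0.41) and Hsd3b7 of bile acid synthesis (0.33) rose, and Ggps1 (-0.25) and Dhdds, which acts in dolichol synthesis (-0.20), fell. Of 12 tested genes of fatty acid oxidation, 7 rose and 2 fell in KD (31.9% and 23.5% of all genes), 3 rose and 7 fell in 5NC (31% and 25.6%), and 0 were called in OV (22% of all genes, limma, also 0 at an unadjusted p under 0.05). Decr1, a dienoyl-CoA reductase of mitochondria, rose in KD by a log2 fold change of 0.66, and Acadvl, an acyl-CoA dehydrogenase, by 0.30. The nuclear receptor Ppard fell in KD (-0.44) and in 5NC (-0.61). Pparg was at 0.28, 0.62 and 0.60 RPKM in 3NC, at 0.23, 0.20 and 0.16 in KD and at 1.19, 1.27 and 1.13 in 5NC, and it was called in both comparisons (-0.32 in KD and 0.56 in 5NC). It was below 1 RPKM in all LV3 libraries and passed the filter only through the LV5 groups, where it is high. Hadha of the mitochondrial trifunctional protein rose (0.47) and Etfdh of the electron transfer chain fell (-0.41) in 5NC.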

How the data were processed

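RNA-seq was analysed for 12 libraries of C18-4 cells in 4 groups, taken from the labels with their replicate numbers. The authors deposited RPKM values for 17576 genes. The methods describe enrichment of mRNA on oligo(dT) beads (the labels name total RNA), after which reads were mapped to reference genes with SOAPaligner, and read numbers were transformed into RPKM. The genome build and gene set are not given in the sources used here. Read numbers were not recovered, so depth is unknown, and reads shared between related genes such as Scd1 and Scd2 depend on the mapping.

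From the deposited RPKM, log2(RPKM + 1) was fitted with limma 3.58.1 in R 4.3.3, in 1 model of all libraries with a term for the group, eBayes with an intensity trend, for the 11435 genes that reached 1 RPKM in 3 or more libraries. Benjamini-Hochberg adjustment was made over these genes, and the fit was tested on simulated data. The study's own threshold was counted beside an adjusted p of at most 0.05, whose passing is meant by "rose" and "fell". The study applied that threshold with the package DEGseq, so the counts given here at that threshold are not the study's counts. An exact permutation test of 3 against 3 libraries cannot go below 0.1. Promoter windows are from RefSeq (GRCm38.p6) and were matched by symbol. Plots were made in Python 3.11.15 (matplotlib 3.10.9).

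The 37 members and the lists of other lipid genes were chosen with earlier results of these data known. All members are named. Of each other list, the 2 genes with the largest and the 2 with the smallest log2 fold change among those called in a comparison are named, except some that are not reported here. The alternatives were another pseudocount, no filter, 2 scalings, a fit of the 6 libraries compared, no intensity trend, a replicate block, other thresholds, another control for KD and for OV, the median for branches, and each library left out in turn.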

Additional observations from a re-analysis of the deposited data

How the results depend on the processing

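Over the fits with a library left out, the 27 falls and 5 rises in 5NC moved least. With each library left out in turn, 25 to 27 members were lower in 5NC and 5 were higher. Members higher in KD were 6 to 9 and lower 6 to 8, members higher in OV were 4 to 12 and lower 0 to 4, and members with a KD effect above the OV effect were 4 to 7 and below it 10 to 12. With no filter on low values 1 member was lower in OV, and in 5NC Ebp (0.12) was called as higher and Nr1h2 (-0.24) was not called. With median ratio size factors the KD effect was above the OV effect in 3 members and 6 members rose and 10 fell in KD. At the study's threshold 0 members were called in KD, in OV or in the difference of effects, and in 5NC 0 were higher and 5 lower. With a pseudocount of 0.1 at that threshold, chosen after seeing the data, the counts were again 0 in KD, in OV and in the difference of effects, and in 5NC 1 was higher and 8 lower. With a fold limit of 0.5 (log2) 0 were higher and 2 lower in KD, 0 higher in OV, 1 higher and 16 lower in 5NC, and the KD effect was above the OV effect in 0 and below it in 4. With an adjusted p of at most 0.01, chosen after seeing the data, 4 were higher in OV and the KD effect was above the OV effect in 3. The shares of all genes at this p and at the fold limit of 0.5 were not counted.

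With 5NC as the control of KD, 25 members were higher and 5 lower. Of the 17 calls 6 turned, Acly (0.48), Fasn (0.47), Hsd17b7 (0.48), Insig1 (0.80), Mvd (0.43) and Scd2 (0.64), and 6 members not called against 3NC were called with the other sign, Acss2 (0.47), Fads2 (-0.13), Nr1h3 (-0.71), Scap (-0.21), Sqle (0.84) and Stard4 (1.17). With 3NC as the control of OV, chosen after seeing the data, 25 were lower and 7 of the 8 calls turned: Acat2 (-0.44), Dhcr7 (-0.29), Fasn (-0.48), Fdps (-0.65), Mvd (-0.62), Sqle (-0.65) and Srebf2 (-0.24). These alternatives set groups with different vectors against each other. With the median over members the branch difference was 0.39 in KD and -0.05 in OV. The cause of the other shifts was not tested.

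The replicate numbers did not pair the libraries, since the correlations of same-numbered libraries, over deviations from the group means, were -0.03, -0.13 and -0.18 for KD and 3NC, 0.18, -0.13 and 0.03 for OV and 5NC, and 0.06, 0.10 and 0.05 for 5NC and 3NC. With the replicate block 10 members were higher and 9 lower in KD, 9 higher and 0 lower in OV, 5 higher and 27 lower in 5NC, and the KD effect was above the OV effect in 5 and below it in 12. Over the 2029 values of single members under an alternative, in which OV against 3NC is not counted, 84 lost the call, 54 gained it, 12 took the other sign with a call, all with 5NC as the control of KD, and 54 took the other sign with no call in either fit. RPKM without read numbers limits what can be said of the precision of low members such as Nr1h3.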
